A study of Homo sapiens with 12 samples.

Results

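ID1, ID2, ID3, ID4, HES1, HES6, HEY1 and HEY2 encode helix-loop-helix proteins that repress transcription or block other helix-loop-helix factors, and all 8 genes were followed on a pair of microarray platforms. Every probe annotated to 1 of these genes and to no other gene was taken, which gave 17 probe sets of 54613 tested on the Affymetrix HG-U133 Plus 2.0 array (AFFX) and 9 probes of 33096 on the Applied Biosystems Human Genome Survey Microarray v1.0 (ABI). A further AFFX probe set for ID2 was left out because it is annotated to ID2B as well. All 8 genes had a probe on both platforms.

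The cells were A2780, an established human ovarian carcinoma line, either left untreated (control) or exposed for 6 h to 3 µM of a cell cycle inhibitor whose name is not given (treated). Both groups were the same unmodified line in the same medium, and only cells still attached to the dish were collected. RNA from 3 cultures per condition was combined into 1 pool, and each pool was split into 3 aliquots for each platform, giving 12 arrays in all with 3 per group. The spread between arrays is therefore technical, and every p-value here measures a change against that spread and not against the spread between cultures.

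ID proteins carry a helix-loop-helix domain but no basic region, so they pair with E proteins and hold them off DNA, which delays differentiation in many tissues. They are classic early targets of BMP signalling through SMAD proteins. HES and HEY proteins do bind DNA, recruit Groucho/TLE corepressors, and include well known targets of the Notch pathway, in which the cleaved receptor joins RBPJ and Mastermind proteins on promoters. HES6 differs from its relatives in that it can counteract HES1. Messenger RNAs of ID and HES genes are known to turn over quickly.

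The bases just before the start of the ID genes are shown first because 3 of these 4 genes moved together on both platforms while ID2 did not. They were read from RefSeq on GRCh38.p14 for 7 of the 8 genes, and HEY1 was left out of the promoter windows. Each line gives the 100 bases before the gene's start on the strand of the gene, with capitals marking TATAAA and CCAAT on either strand.
ID1 (chr20:31605189-31605288, + strand): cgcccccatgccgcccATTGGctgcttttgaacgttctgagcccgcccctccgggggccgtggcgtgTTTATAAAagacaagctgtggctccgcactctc
ID2 (chr2:8681956-8682055, + strand): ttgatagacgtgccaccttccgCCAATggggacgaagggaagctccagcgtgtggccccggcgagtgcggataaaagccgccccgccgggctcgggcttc
ID3 (chr1:23559502-23559601, - strand): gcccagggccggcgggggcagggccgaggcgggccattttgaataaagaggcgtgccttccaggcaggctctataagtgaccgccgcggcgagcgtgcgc
ID4 (chr6:19837270-19837369, + strand): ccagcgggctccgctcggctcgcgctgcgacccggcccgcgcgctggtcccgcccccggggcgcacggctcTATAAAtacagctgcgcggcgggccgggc

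TATAAA stood 29 bases before the start in ID4, and in ID1 it was matched on both strands in an overlapping stretch 33 and 31 bases before the start. It was not matched in the ID2 or ID3 windows. Among all 35116 promoter windows of 250 bases in the table, 10.7% held TATAAA on either strand and 32% held CCAAT. The letters thus did not sort ID1, ID3 and ID4 from ID2.

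HES1 and HEY2 are shown next because the letters TTCCCAC, the core bound by the Notch partner RBPJ, occurred in both windows while the genes behaved differently. The 250 bases before each start are given, with capitals marking TTCCCAC on either strand.
HES1 (chr3:194135898-194136147, + strand): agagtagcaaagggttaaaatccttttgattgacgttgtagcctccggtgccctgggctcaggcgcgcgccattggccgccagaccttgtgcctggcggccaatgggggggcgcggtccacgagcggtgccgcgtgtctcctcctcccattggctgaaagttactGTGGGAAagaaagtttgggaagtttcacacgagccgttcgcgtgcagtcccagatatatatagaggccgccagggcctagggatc
HEY2 (chr6:125749382-125749631, + strand): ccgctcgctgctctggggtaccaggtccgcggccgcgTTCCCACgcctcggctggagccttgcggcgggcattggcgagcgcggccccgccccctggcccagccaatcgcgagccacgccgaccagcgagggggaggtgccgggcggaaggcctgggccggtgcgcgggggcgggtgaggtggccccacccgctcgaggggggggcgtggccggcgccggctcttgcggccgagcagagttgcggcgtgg

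The core lay 85 bases before the HES1 start and 213 bases before the HEY2 start, and 5.43% of all windows held it. CACNAG, the N-box bound by HES proteins, was matched 3 times before HES1 and 1 time before ID1, against 32% of all windows with at least 1 match. CACGTG, the E-box of HEY proteins, was in none of the 7 windows and in 6.34% of all windows. GGCGCC, a palindrome of BMP response elements, was matched only in HEY2 among the 7 windows and in 16.4% of all windows. A match is only a run of letters, and no binding was measured.

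ID1, ID3 and ID4 were lower in treated cells on both platforms, HEY1 was lower on both, and HES1 was lower on ABI but split between its probe sets on AFFX. ID2, HES6 and HEY2 were not called on either platform. ID2 201566_x_at on AFFX had an adjusted p of 0.0281 by limma, but a change under 1.5-fold. A probe was called lower or higher when limma's adjusted p, by Benjamini-Hochberg over all probes of the platform, was under 0.05 and the change was at least 1.5-fold. On AFFX 9 of the 17 probe sets were called lower, 52.9%, against 8.95% of all probe sets, and 1 was called higher, 5.88%, against 1.75%. On ABI 5 of the 9 probes were called lower, 55.6%, against 10.1% of all probes, and none was called higher, against 7.71%. At an unadjusted limma p under 0.05, or by an equal-variance t-test, likewise 0 of the 9 ABI probes were higher. The median log2(Fold Change) was -0.67 over the AFFX probe sets of the 8 genes and 0.12 over all AFFX probe sets, and it was -1.23 and 0.16 on ABI. In these bulk samples, fewer cells of a kind and less RNA per cell cannot be told apart.

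Treated and control arrays separated fully for most of these probes. All treated values lay under all control values for 11 of 17 AFFX probe sets, against 17.5% of all probe sets, and above them for 1, against 34%. The same held for 5 of 9 ABI probes, against 17.1%, with none above, against 23.8%. In a comparison of 3 against 3 arrays an exact permutation test cannot go below p = 0.1, so separation is given as a description.

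Several features of the whole data set bear on these values. Array medians lay between 5.37 and 5.47 log2 units on AFFX, and between 1.06 and 1.19 on the linear scale of ABI. The median SD between control arrays was 0.0976 on AFFX and 0.261 on ABI. The deposited ABI values carried no detection flags, so the median signal of leukocyte marker genes, which this line should lack, served as a guide to the dim end: 5.07 log2 units on AFFX (13 genes) and -1.58 on ABI (14 genes). The 18 AFFX hybridization control probe sets averaged 9.26 to 9.47 on control arrays and 9.49 to 9.91 on treated arrays, a mean rise of 0.42, and its part in the results was not tested. Of the epithelial markers, 2 of 6 lay above that guide on AFFX control arrays, KRT8 at 6.20 and KRT18 at 5.93, while EPCAM at 4.23, CDH1 at 4.17, KRT7 and KRT19 lay below it. On ABI 4 of 5 lay above it, with CDH1 below. None of the 6 was called on AFFX by limma, where 2 had an adjusted p under 0.05. On ABI KRT18 alone was called, with a change of -0.87 on the log2 scale. None of the leukocyte markers was called by limma on either platform, with an adjusted p under 0.05 for 4 on AFFX and 0 on ABI. Their summed linear signal on AFFX was 428 to 444 in controls and 512 to 554 in treated cells. On ABI the groups overlapped in that sum, with 5.95 to 9.23 in controls and 6.65 to 8.92 in treated cells. Among 7 fibroblast genes, COL1A2 and COL3A1 were called lower on AFFX, each by 1 picked probe set, of 3 and of 5. On ABI neither was called, with COL1A2 at 5.66 in controls and 5.92 in treated cells and COL3A1 at 7.65 and 7.85. COL1A1 was called higher on ABI from a control mean of -1.27, near the dim end. The summed linear signal of the 7 was 875 to 883 in controls and 889 to 910 in treated cells on AFFX, and 266 to 299 and 311 to 337 on ABI. Of 6 endothelial genes, CLDN5 was called higher on AFFX (0.63) and none on ABI. Their summed linear signal was 310 to 350 in controls and 413 to 441 in treated cells on AFFX. On ABI it overlapped, with 4.75 to 5.55 in controls and 3.89 to 5.65 in treated cells. On control arrays, 5 of 7 fibroblast genes lay above the guide on AFFX and 7 of 7 on ABI. For endothelial genes it was 3 of 6 on each platform. The part of these markers in the results was not tested.

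**Figure D1:**
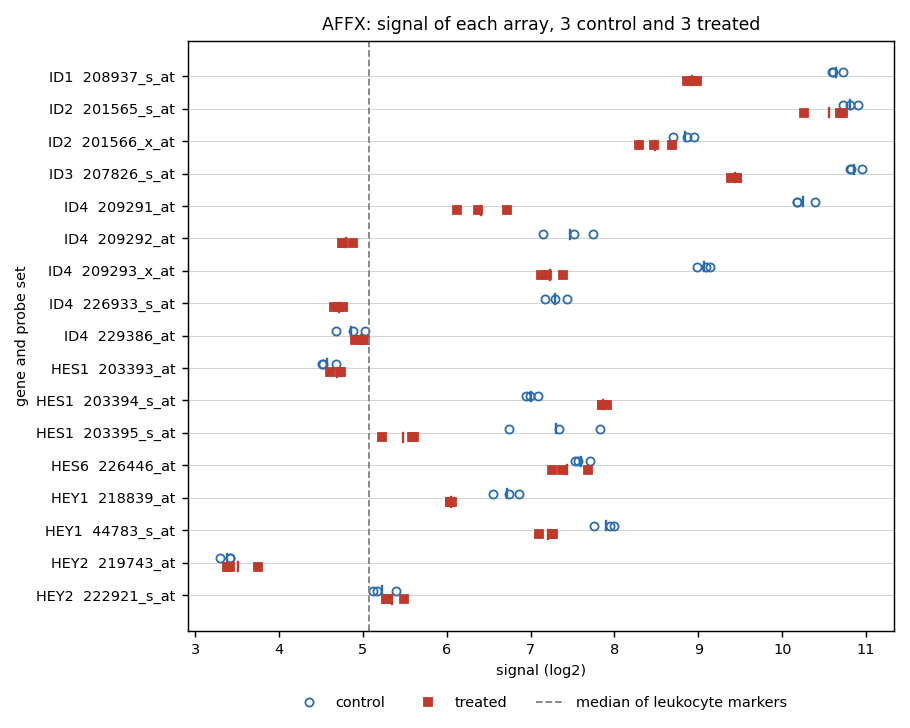
Signal (log2, horizontal axis) of each AFFX probe set of the 8 genes on 3 control arrays (open circles) and 3 treated arrays (filled squares), with short bars at the group means and a dashed line at the median of the leukocyte markers, 5.07. The treated squares lie left of the control circles for ID1, ID3, 4 ID4 probe sets, HEY1 and HES1 203395_s_at, and right of them for HES1 203394_s_at.

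Among the ID genes, ID1 encodes an inhibitor induced early by BMP and serum. Its AFFX probe set 208937_s_at read 10.73, 10.60 and 10.59 log2 units on the control arrays and 8.94, 8.98 and 8.87 on the treated arrays. The ABI probe 204743 read 8.12, 7.74 and 7.94 in controls and 5.80, 5.99 and 6.18 in treated cells. Both groups were tight on both platforms and lay more than 1.5 units apart at their nearest points. On AFFX its log2(Fold Change) came to -1.71 with a standard error of 0.0833 and an adjusted p of 8.61e-08 by limma, a fall of 3.27-fold. On ABI it came to -1.94 with a standard error of 0.170 and an adjusted p of 0.00179 by limma, a fall of 3.84-fold.

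ID3, a close relative of ID1 with the same partner proteins, behaved alike in direction. Probe set 207826_s_at read 10.95, 10.81 and 10.82 in controls and 9.46, 9.46 and 9.39 in treated cells. On ABI, probe 196116 read 6.64, 6.55 and 6.62 against 4.56, 4.42 and 4.53. All treated arrays were below all control arrays on each platform, with SDs no larger than 0.0822. The AFFX change was -1.42 on the log2 scale, with a standard error of 0.0828 and an adjusted p of 2.85e-07 by limma. The ABI change was -2.10, with a standard error of 0.117 and an adjusted p of 0.000697 by limma. These were falls of 2.68-fold and 4.29-fold.

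ID4, the ID family member best known from neural and mammary lineages, gave the largest change of the 8 genes on both platforms. Its brightest AFFX probe set, 209291_at, read 10.39, 10.18 and 10.17 in controls and 6.12, 6.72 and 6.37 in treated cells. It changed by -3.84 on the log2 scale, with a standard error of 0.138 and an adjusted p of 1.32e-08 by limma, or 14.4-fold lower, the 10th largest fall of all AFFX probe sets. The ABI probe 197651 read 2.48, 2.68 and 2.42 in controls and -1.84, -1.03 and -0.94 in treated cells. Its log2(Fold Change) was -3.79 (standard error 0.270, adjusted p = 0.00106 by limma), or 13.9-fold with a 95% confidence interval of 8.72 to 22.1-fold. The ABI treated mean lay only 0.31 log2 units above the leukocyte median, so the treated level was near the dim end there. With 0.5 added to each ABI signal before the log2 step, the ABI change was -2.76, or 6.78-fold, and was still called, so the size of the ABI fall depended on how dim signals were handled.

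The 4 other ID4 probe sets on AFFX started from lower control signals. Probe set 209292_at read 7.75, 7.51 and 7.14 in controls and 4.88, 4.76 and 4.75 in treated cells, a log2(Fold Change) of -2.67. Probe set 226933_s_at read 7.43, 7.29 and 7.17 against 4.70, 4.77 and 4.66, a change of -2.58. The treated values of both lay below the leukocyte median of 5.07, so their changes may be lower limits of the fall. Their control means lay 2.39 and 2.22 log2 units above that median, and no smaller fall than that of 209291_at is read from them. That median is a guide and not a floor, since HEY2 219743_at averaged 3.38 in controls. Probe set 209293_x_at read 9.14, 9.09 and 8.99 against 7.12, 7.20 and 7.39, a change of -1.84 with both groups well above that median. The last, 229386_at, read 4.68, 4.89 and 5.02 against 4.98, 5.03 and 4.91, was dim in both groups and was not called (log2(Fold Change) 0.11, adjusted p = 0.398 by limma). So 4 of 5 AFFX probe sets for ID4 were called lower. With both groups above the dim end, the changes were -3.84 for 209291_at and -1.84 for 209293_x_at.

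ID2, which shares the ID proteins' fold and partners, stood apart from its relatives. Probe set 201565_s_at read 10.90, 10.73 and 10.80 in controls and 10.69, 10.73 and 10.26 in treated cells. Probe set 201566_x_at read 8.95, 8.87 and 8.70 against 8.47, 8.68 and 8.30. The groups separated by less than 0.02 log2 units in each case, and treated replicate 3 was the lowest array in both. The log2(Fold Change) was -0.25 (95% confidence interval -0.52 to 0.02, adjusted p = 0.126 by limma) for 201565_s_at. For 201566_x_at it was -0.36 (-0.60 to -0.11), with an adjusted p of 0.0281 by limma that passed the test but a change under 1.5-fold. On ABI, probe 129260 read 7.48, 7.40 and 7.24 in controls and 7.65, 7.51 and 7.42 in treated cells, with overlapping groups and a log2(Fold Change) of 0.16 (-0.18 to 0.49, adjusted p = 0.481 by limma). The sign of the ABI value turned under quantile normalization (-0.18) and when arrays were centred on ribosomal protein genes (-0.39), without a call in either case.

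**Figure D2:**
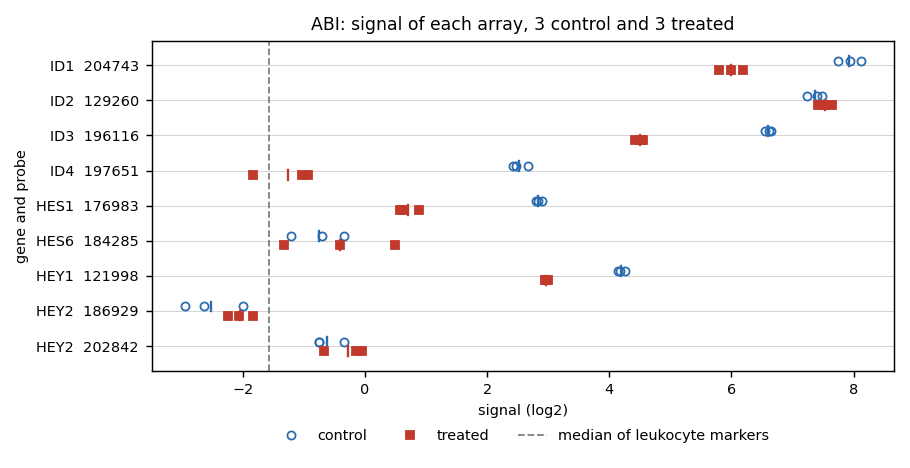
Signal (log2, horizontal axis) of each ABI probe of the 8 genes on 3 control arrays (open circles) and 3 treated arrays (filled squares), with short bars at the group means and a dashed line at the median of the leukocyte markers, -1.58. ID1, ID3, ID4, HES1 and HEY1 show separate groups, while ID2, HES6 and both HEY2 probes overlap.

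HES1, the best known Notch target and a repressor of proneural genes and of its own promoter, gave opposite calls within AFFX. Probe set 203395_s_at read 7.83, 7.34 and 6.74 in controls and 5.23, 5.61 and 5.58 in treated cells. Probe set 203394_s_at read 7.09, 6.99 and 6.94 against 7.91, 7.85 and 7.85. The treated arrays were the lower ones for the former and the higher ones for the latter, with no overlap in either. Probe set 203395_s_at changed by -1.83 on the log2 scale (standard error 0.220, adjusted p = 8.37e-05 by limma), 3.56-fold lower. Its treated mean of 5.47 lay only 0.40 log2 units above the leukocyte median, near the dim end. Probe set 203394_s_at changed by 0.86 (standard error 0.0814, adjusted p = 1.26e-05 by limma), 1.82-fold higher, and lost its call at a 2-fold limit.

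The third HES1 probe set, 203393_at, averaged 4.57 in controls and 4.69 in treated cells, below the leukocyte median in both, and was not called. The ABI probe 176983 read 2.89, 2.80 and 2.82 in controls and 0.58, 0.88 and 0.63 in treated cells. Its log2(Fold Change) was -2.14 (standard error 0.136, adjusted p = 0.000859 by limma), 4.41-fold lower, so it moved the same way as 203395_s_at. In the platform annotation, the ABI probe and 203395_s_at carry the same RefSeq transcript of HES1, and 203393_at and 203394_s_at carry a single expressed sequence tag. The control values of 203395_s_at spread the most of all 17 AFFX probe sets, with an SD of 0.545.

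HEY1, a repressor induced by Notch in vessels and in many tumour lines, fell on both platforms by less than ID1, ID3 and ID4 did. Probe set 218839_at read 6.55, 6.86 and 6.75 in controls and 6.04, 6.04 and 6.06 in treated cells. Probe set 44783_s_at read 7.95, 7.99 and 7.76 against 7.27, 7.25 and 7.10. The treated arrays were lower throughout, and the pair of probe sets gave nearly the same change, -0.67 (standard error 0.0935, adjusted p = 0.000263 by limma) and -0.69 (standard error 0.0938, adjusted p = 0.00022 by limma). These are falls of 1.59-fold and 1.61-fold, just past the 1.5-fold limit. On ABI, probe 121998 read 4.26, 4.18 and 4.14 in controls and 2.94, 3.00 and 2.96 in treated cells, a change of -1.23 on the log2 scale with a standard error of 0.113 and an adjusted p of 0.00212 by limma, or 2.34-fold lower.

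HES6, the member that can oppose HES1, was not called. Probe set 226446_at read 7.53, 7.71 and 7.57 in controls and 7.38, 7.69 and 7.25 in treated cells, a log2(Fold Change) of -0.16 with a 95% confidence interval of -0.42 to 0.09 (adjusted p = 0.274 by limma). On ABI, probe 184285 read -0.34, -0.71 and -1.22 in controls and -1.32, 0.49 and -0.42 in treated cells. The treated arrays bracketed the controls, with an SD of 0.904, the widest of the 9 ABI probes. The ABI log2(Fold Change) was 0.34 (-0.90 to 1.58, adjusted p = 0.686 by limma), and it turned to -0.11 without treated replicate 2. A 2-fold rise thus lay within the ABI interval, while the AFFX interval held none as large as 1.5-fold.

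HEY2, the HEY protein of heart and arteries, was not called, and 1 of its 2 probes on each platform was dim in both groups. Probe set 219743_at averaged 3.38 in controls and 3.52 in treated cells, below the leukocyte median of 5.07, and 222921_s_at averaged 5.23 and 5.35. Their log2(Fold Change) values were 0.14 (adjusted p = 0.331 by limma) and 0.13 (adjusted p = 0.348 by limma). The ABI probe 186929 averaged -2.53 in controls and -2.05 in treated cells, again below the leukocyte median, and 202842 averaged -0.62 and -0.29. Neither ABI probe passed, with changes of 0.48 (adjusted p = 0.284 by limma) and 0.33 (adjusted p = 0.363 by limma). All 4 signs turned when arrays were centred on ribosomal protein genes, which moved the median of all probes by -0.16 on AFFX and -0.54 on ABI. Of the 7 AFFX probe sets without a call, 3 were dim in both groups (1 each of ID4, HES1 and HEY2), as was 1 of the 4 ABI probes without a call.

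**Figure D3:**
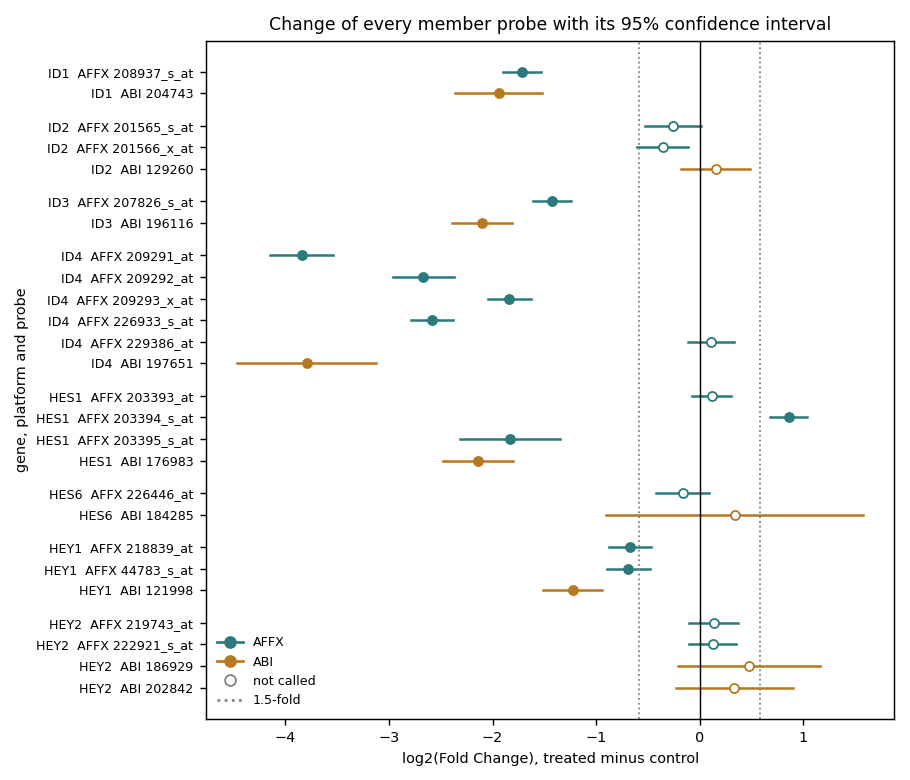
Change of every probe of the 8 genes (log2(Fold Change), treated minus control, horizontal axis) with limma's 95% confidence interval, AFFX in teal and ABI in ochre. Filled points were called, open points were not, and dotted lines mark 1.5-fold. The points run from -3.84 (ID4 209291_at) to 0.86 (HES1 203394_s_at).

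The platforms were then compared gene by gene, with 1 probe per gene and platform, picked by the smallest p in an equal-variance t-test. The paper picked probes by a t-test whose form it does not state, and called genes by a different test. Because the same arrays chose the probe, genes with several probes lean towards larger changes. Of the 8 genes 4 were called lower on AFFX and 1 higher, against 14.2% and 2.49% of all genes, and 5 were called lower on ABI and none higher, against 14.8% and 6.31%. ID1, ID3, ID4 and HEY1 were called lower on both, 4 of 8 genes, against 10.5% of the 16186 shared genes. None of the 8 was called higher on both, against 0.42%. HES1 was called in opposite directions, against 0.352%, since 203394_s_at was the AFFX probe set that this rule picked.

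The size of the change was tested between platforms as the ABI change minus the AFFX change, with the variance of each platform kept apart and adjustment over all shared genes. It passed the test for 4 of the 8 genes, against 17.1% of shared genes, and for ID4 and HES1 among them this hung on the AFFX probe set. ID3 fell more on ABI by -0.68 (95% confidence interval -0.98 to -0.38, adjusted p = 0.00313 by limma estimates), and HEY1 by -0.54 (-0.85 to -0.23, adjusted p = 0.0177). ID1 did not pass, with a difference of -0.23 (-0.63 to 0.17, adjusted p = 0.464). ID2 came to 0.51 (0.14 to 0.88, adjusted p = 0.056), HES6 to 0.50 (-0.58 to 1.59, adjusted p = 0.563) and HEY2 to 0.35 (-0.27 to 0.98, adjusted p = 0.467).

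For ID4 and HES1 the answer followed the probe set. ID4 differed by -1.21 (-1.81 to -0.61, adjusted p = 0.00685 by limma estimates) with 226933_s_at. The AFFX fall of that probe set may be only a lower limit, so no difference is read from it. With both groups above the dim end, ID4 differed by 0.05 (adjusted p = 0.942) with 209291_at. It differed by -1.96 (adjusted p = 0.000135 by limma estimates) with 209293_x_at, so these probe sets gave unlike answers. HES1 differed by -3.00 (-3.34 to -2.67, adjusted p = 3.49e-09) with 203394_s_at and by -0.31 (adjusted p = 0.469) with 203395_s_at. The comparison of each other pair of probes was added after these values had been seen.

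Genes whose pattern over the 12 arrays was nearest to a called gene were found by the root mean square difference of log2 values, each gene set against its own control mean on each platform, among all 16186 shared genes. They are named as a description with no statement on function. Nearest to ID1 were USP1 (0.0859) and DUSP7 (0.0966), to ID3 NSUN3 (0.0776) and LRRC8D (0.0931), and to HEY1 AKAP1 (0.0569) and RAD54L (0.0605). ID4, taken with 226933_s_at, whose AFFX fall may be only a lower limit, had MED7 (0.18) and HJURP (0.189) as its nearest genes. HES1, taken with its rising AFFX probe set, had FAAH (0.247) and EMILIN2 (0.247), both farther off than those of the other 4 genes.

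The pathways around these repressors were described with 9 gene lists, of which 93 genes were measured on AFFX and 86 on ABI. On AFFX 20 were called lower, 21.5%, and 2 higher, 2.15%, against 14.2% and 2.49% of all genes. On ABI 15 were called lower, 17.4%, and 9 higher, 10.5%, against 14.8% and 6.31%. Of the 86 genes measured on both, 11 were called lower on both platforms, 12.8%, against 10.5% of all shared genes, none was called higher on both and none in opposite directions. Taken over all lists, the share called lower on both platforms was therefore near the background.

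Among the BMP receptors, SMADs and SMURF ligases, which lie upstream of ID genes, 9 of 14 were called lower on AFFX and none higher, and 6 of 14 were called lower on ABI and 1 higher. Over all genes, 14.2% were lower and 2.49% higher on AFFX, and 14.8% and 6.31% on ABI. The list's median log2(Fold Change) was -0.79 on AFFX and -0.37 on ABI, beside 0.16 and 0.09 over all genes. Called lower on both platforms were ACVR1, ACVR2A, SMAD1, SMAD4, SMAD7 and SMURF2. ACVR2A, a receptor shared by activins and BMPs, changed by -0.83 on AFFX and -2.69 on ABI, where the treated arrays had an SD of 1.02. SMAD4, the common partner of the signal-carrying SMADs, changed by -1.67 and -1.51. SMAD1, which carries the BMP signal, changed by -0.96 and -1.45. Its ABI treated mean of -1.52 lay near the leukocyte median of -1.58, so the size of that fall is uncertain. The ubiquitin ligase SMURF2, which tags SMADs and receptors for removal, changed by -1.05 and -1.38. Inhibitors of the pathway were thus among the called genes as well. SMAD5, SMAD6 and SMAD7 were chosen for mention after their values were seen. SMAD7, an inhibitory SMAD, changed by -0.75 and -0.61. SMAD6, the inhibitory SMAD of the BMP branch, was called lower on AFFX (-1.77) and not on ABI (-0.54, adjusted p = 0.341 by limma). SMAD5 averaged 8.01 in controls and 7.01 in treated cells on AFFX, where it was called lower, and had an ABI change of 0.36 (adjusted p = 0.174 by limma). None of the 13 BMP ligands and antagonists was called on AFFX by limma, where 5 had an adjusted p under 0.05 with a change under 1.5-fold, and 2 of 11, BMP7 and NOG, were called higher on ABI.

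On the Notch side, 1 of 9 ligands and receptors was called lower on AFFX and 2 of 8 on ABI, with none higher, beside the same shares of all genes, 14.2% lower on AFFX and 14.8% on ABI. The shares of all genes called higher were 2.49% on AFFX and 6.31% on ABI. NOTCH1, a receptor, was called lower on both platforms, by -0.63 on AFFX and -1.43 on ABI, and the ligand JAG1 on ABI alone (-1.32, against -0.38 on AFFX). The AFFX probe set of JAG1 averaged 4.84 in controls and 4.46 in treated cells, below the leukocyte median of 5.07. Among processing enzymes and nuclear factors, 4 of 13 were called lower and 1 higher on AFFX, and 3 of 11 lower and none higher on ABI. MAML1, the Mastermind coactivator, changed by -1.09 and -1.21, and SPEN, which works with RBPJ in repression, by -1.70 and -1.69. MAML3, a relative of MAML1, was called lower on AFFX (-1.95) and not on ABI (0.24, adjusted p = 0.758 by limma). Its ABI probe averaged -2.20 in controls and -1.96 in treated cells, below the leukocyte median of -1.58, and so could not show a fall. PSENEN, a subunit of the cleaving enzyme, was called higher on AFFX (0.78) and had no ABI value here. RBPJ, mentioned after its values were seen because its core is in the printed promoters, was called lower on ABI (-0.69) and not on AFFX (0.20, adjusted p = 0.0706 by limma). Of the 14 modulators, 3 were called lower on AFFX and 3 higher on ABI, with no gene among both. NRARP, a Notch target that feeds back on the pathway, changed by -1.21 on AFFX, where it was called, and by 0.41 on ABI (adjusted p = 0.231 by limma). DTX4 was called lower on AFFX (-1.10), with a value of -1.34 on ABI (adjusted p = 0.0700 by limma). MFNG, which adds sugars to Notch receptors, and DTX2 were called higher on ABI (1.07 and 1.02).

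Among the partners of the repressors, 2 of 6 TLE genes were called lower on AFFX and 1 of 6 on ABI, with none higher. Over all genes, 14.2% were called lower on AFFX and 14.8% on ABI, so the ABI count was near that share. TLE4, a Groucho corepressor that HES proteins recruit, averaged 9.40 in controls and 5.26 in treated cells on AFFX, and 5.40 and 0.80 on ABI. TLE3 was called lower on AFFX (-0.98) and not on ABI (0.28), and the other 4 TLE genes were called on neither platform. Of the 3 E proteins, which ID proteins hold off DNA, none was called by limma on AFFX, where all 3 had an adjusted p under 0.05 with a change under 1.5-fold, and TCF12 was called lower on ABI (-0.73, against -0.50 on AFFX). Among the other relatives of HES and HEY, BHLHE41 was called lower on both, by -2.50 and -1.79, and BHLHE40 on ABI alone (-1.44, against -0.34). The AFFX probe set of BHLHE40 was dim in both groups, at 4.23 in controls and 3.89 in treated cells. Neurogenic and myogenic activators of the same fold, which HES and ID proteins restrain, were called higher in 1 of 14 on AFFX (MYOG, 0.63) and 3 of 13 on ABI (ASCL2, NEUROG1 and NEUROG2), against 2.49% and 6.31% of all genes. None of them was called lower, and none was called on both platforms. The AFFX medians of this list were 4.92 in controls and 5.11 in treated cells, near the leukocyte median of 5.07.

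**Figure D4:**
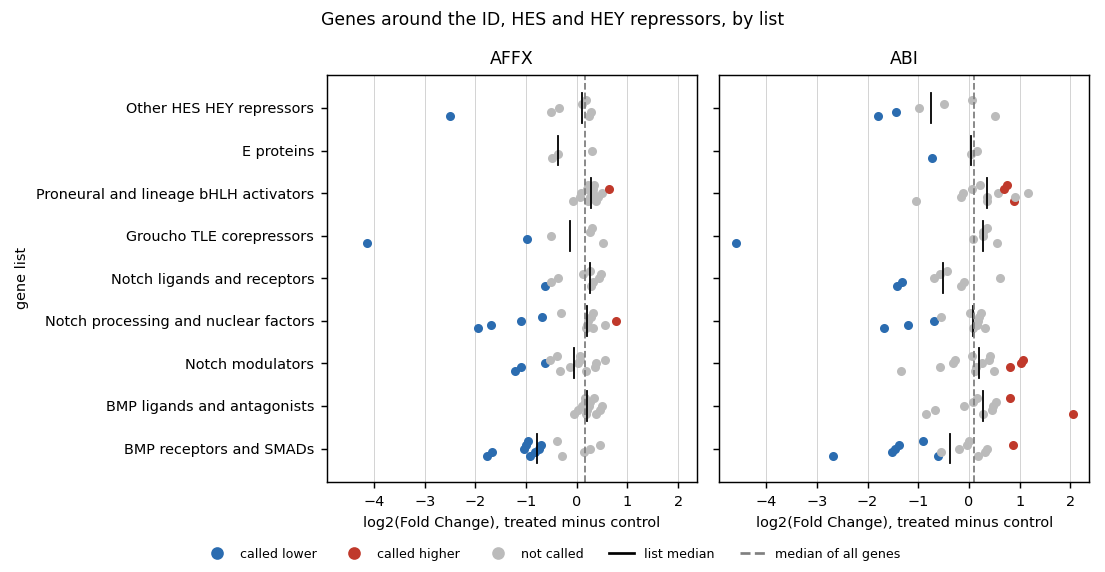
Change of each listed gene (log2(Fold Change), treated minus control, horizontal axis) by gene list on AFFX (left) and ABI (right), 1 probe per gene. Blue points were called lower, red points higher and grey points neither, with black bars at list medians and a dashed line at the median of all genes. The BMP receptors and SMADs list has the lowest AFFX median, -0.79, and TLE4 is the point farthest left on both.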

How the data were processed

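AFFX values were deposited as log2 signals, which the authors had made with RMA (version not stated) and quantile normalization. ABI values were deposited as linear chemiluminescence intensity after the authors' global median normalization, without detection flags, and were turned to log2 here. Genes were named from the platform annotation: 41091 AFFX probe sets and 21089 ABI probes had 1 gene, 1801 and 563 had several, and 11721 and 11444 had none. Control probe sets of AFFX, 62 in number, were left out. Samples were grouped by condition as labelled.

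Conditions were compared by limma 3.58.1 (lmFit and eBayes, R 4.3.3) on each platform alone and without pairing. P-values were adjusted by Benjamini-Hochberg across every probe tested, and probes with an adjusted p under 0.05 and at least 1.5-fold were called. Platform differences were taken as the difference of the limma estimates over the root of their summed squared standard errors, with summed degrees of freedom. Gene lists were described by counts and medians, with 1 probe per gene. Promoter letters came from RefSeq. The 8 genes, the gene lists and the rules were chosen with earlier results of these data known, every single-gene probe of the 8 genes is reported, and up to 4 genes a list are named, first those called alike on both platforms by mean change, then those called on 1. The code was tested on simulated data.

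Alternatives were other scalings, an offset, a block on the replicate number, a filter on dim probes and other thresholds. Further ones were an equal-variance t-test, another prior, another choice of probe, and each array left out in turn. Same-numbered arrays deviated together with r of 0.07, 0.00 and 0.33 on AFFX and 0.03, -0.01 and 0.07 on ABI, so the numbers were not taken as pairs. The number of arrays and the ABI spread limit the precision.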

Additional observations from a re-analysis of the deposited data

Results flagged for a closer look

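For 4 genes the change on ABI differed from the change on AFFX in the test of the difference itself (limma estimates, adjusted over 16186 shared genes). ABI minus AFFX came to -0.68 for ID3, -1.21 for ID4, -3.00 for HES1 and -0.54 for HEY1 on the log2 scale. ID3 and HEY1 were lower on both platforms, with the larger fall on ABI, and the other HEY1 probe set on AFFX gave a similar difference (-0.56 with 218839_at). For ID4 the value of -1.21 sets the ABI fall against an AFFX probe set, 226933_s_at, whose treated signals were below the leukocyte median. The AFFX fall of that probe set may be a lower limit, so no difference is read from it. The ID4 value ranged over its 4 other AFFX probe sets from -3.91 with the dim 229386_at to 0.05 with 209291_at. With 209293_x_at, which like 209291_at lay above the dim end in both groups, it was -1.96. For HES1 it was -2.26 with the dim 203393_at and -0.31 with 203395_s_at.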

How the results depend on the processing

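The 9 AFFX and 5 ABI probes called lower kept their calls when any 1 array was left out. They also kept them under the replicate block, under each scaling and with an equal-variance t-test. At a 2-fold limit both HEY1 probe sets on AFFX and HES1 203394_s_at lost theirs, which left 0 AFFX probe sets called higher. With no fold limit ID2 201566_x_at was called lower, and the listed genes on AFFX went to 33 lower and 30 higher. Centring on ribosomal protein genes turned the sign of uncalled probes: on AFFX HES1 203393_at to -0.0410, HEY2 219743_at to -0.0215, HEY2 222921_s_at to -0.0320 and ID4 229386_at to -0.0459, and on ABI ID2 to -0.39, HES6 to -0.20 and HEY2 to -0.0613 (186929) and -0.21 (202842). It also turned the HEY2 platform difference to -0.18 and brought that of ID1 past the threshold (-0.61, adjusted p = 0.0173 by limma estimates). ABI quantile normalization turned ID2 to -0.18 and took HEY1's platform difference out of the calls (-0.30, adjusted p = 0.136 by limma estimates). Without 1 array in turn, HES6 on ABI ran from -0.11 to 0.79. The ID4 platform difference ran from -1.88 to 0.21 without 1 array in turn, because leaving out AFFX treated replicate 3 or 2 also changed the probe set picked, to 209293_x_at and 209291_at. With the probes held, an alternative added after the values were seen, it ran from -1.37 to -0.93. It was 0.0482 with the brightest probe or with 209291_at, a pair added after the values were seen. The ID2 difference passed without AFFX control replicate 3 (adjusted p = 0.0374 by limma estimates) or AFFX treated replicate 2 (adjusted p = 0.0227).

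Counts over all probes moved more than those of the 8 genes. Under the replicate block the AFFX counts were 4890 lower and 958 higher, while ABI went from 3347 lower and 2553 higher to 1889 and 347, and the ID2 platform difference passed (adjusted p = 0.0246 by limma estimates). At an adjusted p under 0.01 the ABI counts were 1932 and 358, and without 1 array in turn 2227 to 2761 lower and 737 to 1376 higher. A 2-fold limit gave 2526 and 80 on AFFX and 871 higher on ABI, and no fold limit gave 8316 and 12746 on AFFX. Centring on ribosomal protein genes gave 6307 and 229 on AFFX and 7140 and 254 on ABI, so that the lower share of calls went from 83.6% to 96.5% and from 56.7% to 96.6%. Centring AFFX on array medians left 539 higher, and 1501 were higher without AFFX control replicate 3. The causes were not tested.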
